A study of Mus musculus with 4 samples.

Results

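The 7 genes described here are the mouse IgG Fc receptor genes Fcgr1, Fcgr2b, Fcgr3 and Fcgr4, the shared signalling subunit Fcer1g, the Fc receptor-like scavenger gene Fcrls and the neonatal Fc receptor gene Fcgrt. They were picked out by gene symbol, as a set chosen with earlier results of these data known, and make up 7 of the 17550 genes with a read in at least 1 library. All 7 had reads in all 4 libraries. RNA was sequenced from left ventricles of C57BL/6 mice aged 8 weeks, 3 days after an experimental myocardial infarction. The groups were infarcted ventricle labelled Neil3-/-, infarcted wild-type ventricle, non-infarcted ventricle labelled Neil3-/- and non-infarcted wild-type ventricle, with 1 library each. Mice of every group had undergone infarction, so non-infarcted tissue came from an infarcted heart and no heart without an infarct was analysed here. The labels name neither the deleted part of Neil3 nor whether a library came from 1 mouse or a pool. No difference below has a replicate check, no test between groups was possible, and each 95% interval, given in parentheses, covers counting error only.

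Receptors for the Fc part of IgG let phagocytes bind antibody-coated particles and immune complexes. The activating receptors of the mouse signal through an immunoreceptor tyrosine-based activation motif that is carried by the Fcer1g chain, and Src-family kinases and Syk act downstream. The inhibitory receptor Fcgr2b carries an inhibitory motif of its own and recruits the inositol phosphatase encoded by Inpp5d. Fcgrt works differently: its product pairs with beta-2-microglobulin and returns IgG and albumin from endosomes to the cell surface, which prolongs their life in blood. In the injured heart, the cells best known for IgG Fc receptors are infiltrating and resident macrophages, monocytes and neutrophils.

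The promoters of 5 of the genes are shown: the 4 that hold a match to a searched pattern (Fcgr1, Fcgr3, Fcgr4 and Fcrls) and that of Fcgrt, which was lower in infarcted tissue. Those of Fcgr2b and Fcer1g, which were higher in infarcted tissue as Fcgr1, Fcgr3 and Fcgr4 were, are not printed. Each one shown is a 300-base window, most of it before the start listed by RefSeq on GRCm38.p6, 5′ to 3′ on the gene's own strand; for Fcgr3 the first of 2 listed starts was used. The deposited values were made on another build, mm9, so these coordinates do not belong to the expression files. Capitals mark GAGGAA on either strand (TTCCTC where it lies on the opposite strand), a core of ETS-family sites favoured by the myeloid factor PU.1, and TTCNNNGAA, the pattern bound by STAT factors after interferon-gamma.
Fcgr1, chr3:96293920-96294219, minus strand: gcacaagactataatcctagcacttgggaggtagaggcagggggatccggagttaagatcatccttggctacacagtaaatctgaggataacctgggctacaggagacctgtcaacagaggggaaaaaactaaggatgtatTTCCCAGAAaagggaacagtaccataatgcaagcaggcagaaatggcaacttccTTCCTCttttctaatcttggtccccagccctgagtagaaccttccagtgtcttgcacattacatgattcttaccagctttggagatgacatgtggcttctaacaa
Fcgr3, chr1:171059354-171059653, minus strand: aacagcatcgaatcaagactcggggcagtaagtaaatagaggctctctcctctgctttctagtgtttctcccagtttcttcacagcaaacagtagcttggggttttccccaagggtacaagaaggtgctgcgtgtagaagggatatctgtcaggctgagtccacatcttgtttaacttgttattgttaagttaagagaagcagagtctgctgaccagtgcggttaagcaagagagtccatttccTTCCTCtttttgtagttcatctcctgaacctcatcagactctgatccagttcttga
Fcgr4, chr1:171018676-171018975, plus strand: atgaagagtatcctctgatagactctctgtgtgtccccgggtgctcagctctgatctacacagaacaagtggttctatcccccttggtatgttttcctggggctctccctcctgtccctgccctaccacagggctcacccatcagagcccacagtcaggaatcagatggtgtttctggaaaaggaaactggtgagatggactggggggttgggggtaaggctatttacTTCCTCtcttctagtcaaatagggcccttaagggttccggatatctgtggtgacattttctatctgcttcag
Fcrls, chr3:87263475-87263774, minus strand: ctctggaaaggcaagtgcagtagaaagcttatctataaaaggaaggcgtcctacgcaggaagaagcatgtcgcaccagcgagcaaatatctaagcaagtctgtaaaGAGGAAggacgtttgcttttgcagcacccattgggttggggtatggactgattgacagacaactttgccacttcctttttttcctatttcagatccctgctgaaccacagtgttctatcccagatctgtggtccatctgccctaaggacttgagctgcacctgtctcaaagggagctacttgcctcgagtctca
Fcgrt, chr7:45103773-45104072, minus strand: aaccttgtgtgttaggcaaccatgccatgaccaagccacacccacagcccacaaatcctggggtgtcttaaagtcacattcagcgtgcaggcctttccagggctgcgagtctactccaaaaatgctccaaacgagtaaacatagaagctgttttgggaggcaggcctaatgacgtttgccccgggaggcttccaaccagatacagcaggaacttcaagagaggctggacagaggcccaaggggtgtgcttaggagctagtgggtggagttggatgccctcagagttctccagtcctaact
The letters GAGGAA were found in 4 of the 7 promoters and in 28.3% of 27025 mouse promoters of the same 300-base length. Counting the first base of the transcript as 1, the match began at -55 in Fcgr1, -6 in Fcgr3, -22 in Fcgr4 and -144 in Fcrls, and it lay on the opposite strand in all but Fcrls. TTCNNNGAA was found in 1 of the 7, at -109 in Fcgr1, and in 8.47% of all promoters. Neither pattern was found in the promoters of Fcgr2b, Fcer1g and Fcgrt, so the genes higher in infarcted tissue include some with and some without a match. The 2 patterns did not overlap. These matches describe letters and do not show binding.

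The libraries held 14.3 M to 18.2 M uniquely assigned reads. Neil3, which encodes a DNA glycosylase, had more reads in the libraries labelled Neil3-/-: 763 against 155 in wild-type infarcted tissue and 391 against 62 in wild-type non-infarcted tissue. By read number alone the gene therefore went against the label, although reads from outside a deleted part would check nothing. The share of its gene model with reads was no higher there, at 71.5% against 73.4% in wild-type infarcted tissue. In non-infarcted tissue it was 62.9% against 63.4% in wild type. Whether part of the gene lacked reads in the libraries labelled Neil3-/- was not tested. The libraries are called by their labels throughout. As a check of heart tissue only, 4 cardiomyocyte genes were present in every library, which does not separate infarcted from non-infarcted tissue. They summed to 7924 RPKM in the infarcted library labelled Neil3-/- and 11905 RPKM in infarcted wild type. In non-infarcted tissue the sums were 19408.5 RPKM labelled Neil3-/- and 20884 RPKM in wild type. RPKM is the number of reads scaled to the length of the gene model and to the assigned reads of the library, so levels of different genes can be compared on it.

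Among the IgG receptors, Fcgr3 was the most abundant in every library, followed by Fcgr2b, Fcgr1 and Fcgr4. Fcgr1 (Entrez 14129, chromosome 3), the high-affinity IgG receptor, was at 25.1 RPKM in the infarcted library labelled Neil3-/-, 22.3 RPKM in infarcted wild type, 8.03 RPKM in the non-infarcted library labelled Neil3-/- and 6.85 RPKM in non-infarcted wild type. Both infarcted libraries thus lay well above both non-infarcted ones, and the 2 non-infarcted libraries did not differ beyond counting error (ratio 1.17, 0.990 to 1.39). Fcgr4 (Entrez 246256, chromosome 1), an activating receptor with preference for IgG2a and IgG2b, had the fewest reads, between 70 and 354. Its level was 15.6 RPKM in the infarcted and 5.15 RPKM in the non-infarcted library labelled Neil3-/-, and 13.2 RPKM in infarcted and 3.76 RPKM in non-infarcted wild type. Its lowest value carried an interval of 2.93 to 4.75 RPKM, and again the 2 non-infarcted libraries could not be separated by counting error (1.37, 0.993 to 1.90).

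Fcgr3 (Entrez 14131, chromosome 1), the low-affinity activating receptor, was at 103 RPKM in the infarcted library labelled Neil3-/-, 79.4 RPKM in infarcted wild type, 37.7 RPKM in the non-infarcted library labelled Neil3-/- and 31.3 RPKM in non-infarcted wild type. Fcgr2b (Entrez 14130, chromosome 1), the inhibitory receptor, was at 76.4 RPKM in the infarcted library labelled Neil3-/-, 51.2 RPKM in infarcted wild type, 22.1 RPKM in the non-infarcted library labelled Neil3-/- and 19.1 RPKM in non-infarcted wild type. Both genes had the same order of libraries, and every step in that order exceeded counting error. Their split is uncertain, because parts of their coding sequences are almost identical. Over 784 aligned coding bases of the GENCODE M21 transcripts they shared 83.3%, and 166 stretches of 50 bases were common to both, 10.9% of those in the Fcgr2b transcript and 12.8% of those in the Fcgr3 transcript. A 150-base stretch with 1 mismatch is shown, with that base in capitals.
Fcgr2b, coding bases 256 to 405: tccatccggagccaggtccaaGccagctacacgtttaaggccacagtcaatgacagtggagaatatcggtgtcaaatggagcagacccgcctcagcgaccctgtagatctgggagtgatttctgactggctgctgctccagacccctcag
Fcgr3, coding bases 241 to 390: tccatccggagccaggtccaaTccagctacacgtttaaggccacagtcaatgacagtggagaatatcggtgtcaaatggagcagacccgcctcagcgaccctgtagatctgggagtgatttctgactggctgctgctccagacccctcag
No 50-base stretch was shared by Fcgr1 or Fcgr4 with each other or with either of these genes. The files count uniquely assigned reads, and how reads from shared stretches were treated is not given in the sources used here.

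Fcer1g (Entrez 14127, chromosome 1), the signalling chain that the activating receptors share with the IgE receptor and several lectin receptors, was the most abundant of the 7 genes in every library. Its level was 210.0 RPKM in the infarcted library labelled Neil3-/- and 258 RPKM in infarcted wild type, against 70.8 RPKM in the non-infarcted library labelled Neil3-/- and 80.7 RPKM in non-infarcted wild type. It was the only one of the 7 that was lower in the libraries labelled Neil3-/- than in wild type in both regions.

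Fcrls (Entrez 80891, chromosome 3) encodes a secreted mouse scavenger protein related to Fc receptors and is widely used as a marker of mouse microglia. It was at 58.8 RPKM in the infarcted library labelled Neil3-/-, 28.8 RPKM in infarcted wild type, 34.3 RPKM in the non-infarcted library labelled Neil3-/- and 14.9 RPKM in non-infarcted wild type, from between 442 and 2130 reads. Its libraries therefore fell in another order than those of the IgG receptors: both libraries labelled Neil3-/- were above both wild-type libraries, and the non-infarcted library labelled Neil3-/- exceeded infarcted wild type 1.19-fold (1.09 to 1.30). Every step in the order was beyond counting error.

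Fcgrt (Entrez 14132, chromosome 7), the neonatal Fc receptor, varied least of the 7 genes, with 29.7 RPKM in the infarcted library labelled Neil3-/-, 27.5 RPKM in infarcted wild type, 40.1 RPKM in the non-infarcted library labelled Neil3-/- and 32.4 RPKM in non-infarcted wild type. Only the step between the 2 non-infarcted libraries exceeded counting error. Non-infarcted wild type and the infarcted library labelled Neil3-/- did not separate (1.09, 0.995 to 1.20), and neither did the 2 infarcted libraries (1.08, 0.982 to 1.19).

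**Figure D1:**
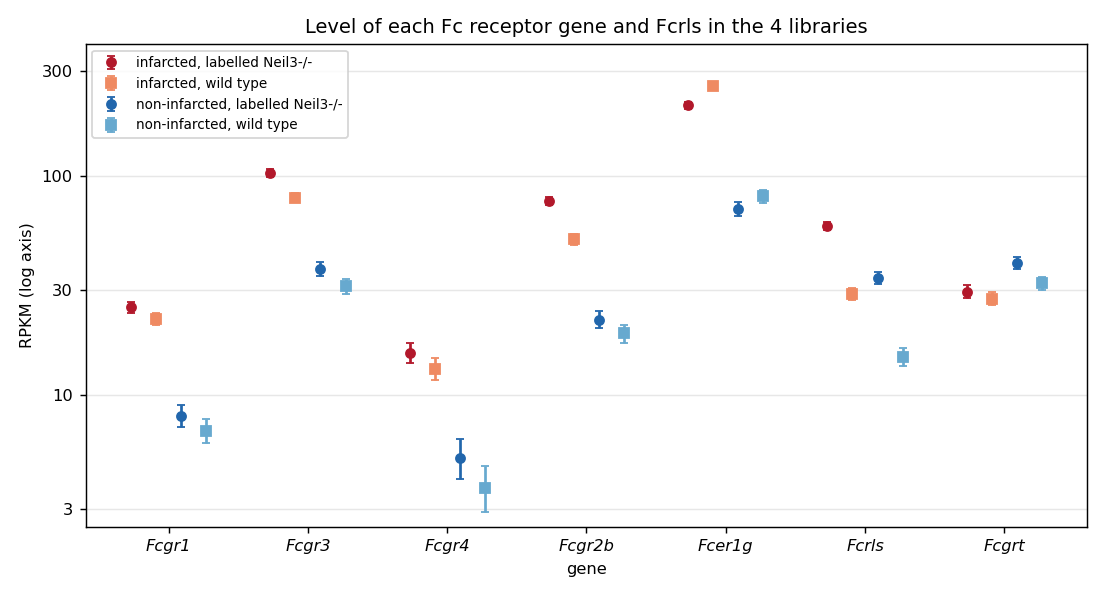
Level of each gene in RPKM on a log axis in the 4 libraries; points are single libraries and bars are exact Poisson 95% intervals for counting error. The IgG receptors and Fcer1g have both infarcted libraries on top, Fcrls has both libraries labelled Neil3-/- on top (58.8 and 34.3 RPKM), and Fcgrt is highest in the non-infarcted library labelled Neil3-/- (40.1 RPKM).

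The first comparison was that of infarcted with non-infarcted ventricle within each genotype. All 4 IgG receptor genes and Fcer1g were 2.54-fold to 3.50-fold higher in infarcted tissue, Fcrls was less than 2-fold higher, and Fcgrt was lower. In bulk tissue, fewer cells of a type and less RNA per cell cannot be told apart. On log2(RPKM + 1), 5 of the 7 genes were at least 2-fold higher and 0 lower in the libraries labelled Neil3-/-, where 8.2% of 12563 compared genes were that much higher and 6.07% that much lower. Those 5 were the IgG receptors and Fcer1g, which also made up the 5 genes at least 2-fold higher in wild type, with 0 lower, where 6.21% of 12515 compared genes were higher and 3.6% lower. At 1.5-fold, 6 of the 7 genes were higher and 0 lower in each genotype, beside 25% of genes higher and 12.4% lower in the libraries labelled Neil3-/- and 21.6% and 9.56% in wild type. The median log2 ratio of the 7 genes was 1.43 in the libraries labelled Neil3-/- and 1.38 in wild type, against 0.24 and 0.21 over all compared genes of these genotypes.

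Taken gene by gene, the infarct ratios of the activating receptors lay between 2.54 and 3.50. Fcgr1 was 3.13-fold higher (2.75 to 3.57) in infarcted tissue labelled Neil3-/- and 3.25-fold higher (2.84 to 3.74) in wild type. Fcgr4 had ratios of 3.02 (2.40 to 3.84) in the libraries labelled Neil3-/- and 3.50 (2.69 to 4.62) in wild type. For Fcgr3 the ratios were 2.73 (2.52 to 2.97) in the libraries labelled Neil3-/- and 2.54 (2.32 to 2.79) in wild type, the lowest of the IgG receptors in both. In wild type its interval did not overlap that of Fcgr1. Their signalling chain Fcer1g lay within the range of the 3 activating receptors, at 2.97 (2.73 to 3.23) in the libraries labelled Neil3-/- and 3.20 (2.96 to 3.46) in wild type. The inhibitory receptor Fcgr2b was 3.46-fold higher (3.14 to 3.83) in infarcted tissue labelled Neil3-/-, the largest ratio there, and 2.69-fold higher (2.41 to 3.00) in wild type.

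Fcrls and Fcgrt stood outside that range. Fcrls was 1.72-fold higher (1.59 to 1.85) in infarcted tissue labelled Neil3-/- and 1.93-fold higher (1.73 to 2.17) in wild type. Fcgrt was at 0.740 of its non-infarcted level (0.676 to 0.810) in the libraries labelled Neil3-/- and at 0.848 (0.769 to 0.934) in wild type. Over all compared genes, 57.5% of those past 2-fold were higher in infarcted tissue in the libraries labelled Neil3-/- and 63.3% in wild type, but with median-of-ratios scaling these were 32.0% in the libraries labelled Neil3-/- and 36.5% in wild type. The direction of each of the 7 genes was the same under every scaling of library size tried. Scaling to macrophage and monocyte markers, described below, turned it for Fcrls in both genotypes and for Fcgr3 in wild type.

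**Figure D2:**
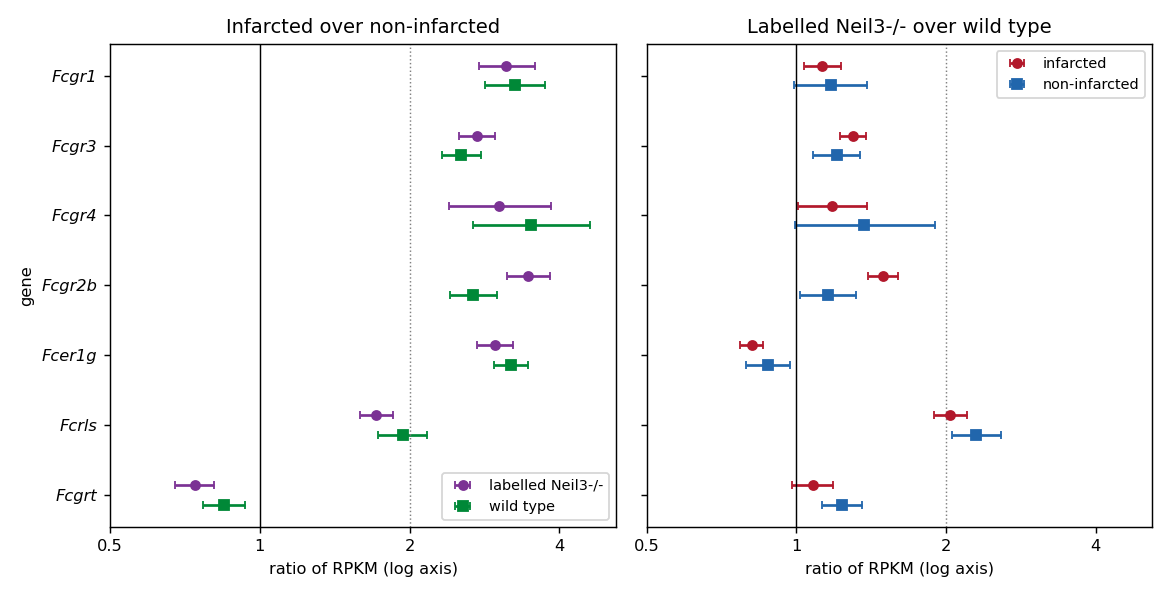
Ratio of RPKM of each gene on a log axis, infarcted over non-infarcted on the left and labelled Neil3-/- over wild type on the right; bars are exact 95% intervals for counting error, the solid line is 1 and the dotted line 2. In the left panel 5 genes lie at 2.54 to 3.50, Fcrls below 2 and Fcgrt below 1; in the right panel Fcrls alone reaches 2 (2.04 and 2.30) and Fcer1g alone lies below 1 (0.814 and 0.877).

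Markers of phagocytes moved with these ratios, and their part in them was not tested. All 10 macrophage and monocyte markers had log2 ratios above 0 in both infarct comparisons, and none was at 0 RPKM in any library. Of all compared genes, 66.3% were above 0 in the libraries labelled Neil3-/- and 67.2% in wild type. Of the markers, 6 were at least 2-fold higher in the libraries labelled Neil3-/- and 7 in wild type. Their summed level was 1542 RPKM in the infarcted and 687 RPKM in the non-infarcted library labelled Neil3-/-, and 1113 RPKM in infarcted and 418 RPKM in non-infarcted wild type. On log2(RPKM + 1), Itgam, an integrin subunit of myeloid cells, had the highest ratio of the list in both genotypes (2.07 in the libraries labelled Neil3-/- and 1.91 in wild type). The ratio of Mrc1, a mannose receptor of macrophages, was 0.78 in the libraries labelled Neil3-/- and 0.49 in wild type, the lowest of the list in wild type only. The 6 neutrophil markers found of 7 all exceeded 2-fold in both infarct comparisons, with sums of 242 RPKM in the infarcted and 24.4 RPKM in the non-infarcted library labelled Neil3-/-, and of 205 RPKM in infarcted and 28.5 RPKM in non-infarcted wild type. Of 5 compared markers of resident macrophages and microglia, 0 were at least 2-fold higher, with medians of 0.62 in the libraries labelled Neil3-/- and 0.65 in wild type. In that list Cx3cr1, the fractalkine receptor, was 1.73-fold higher in infarcted tissue labelled Neil3-/- and 1.81-fold higher in wild type. Lyve1, a hyaluronan receptor, was lowest in both genotypes, at 0.597 of its non-infarcted level in the libraries labelled Neil3-/- and 0.621 in wild type. Markers of natural killer cells, which carry Fcgr3 as well, summed to less than 1 RPKM in every library, with no read of Prf1 in non-infarcted wild type. B cell markers, whose cells carry Fcgr2b, summed to 7.26 RPKM in the infarcted and 2.62 RPKM in the non-infarcted library labelled Neil3-/-, and to 6.75 RPKM in infarcted and 1.79 RPKM in non-infarcted wild type.

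Set relative to the geometric mean of the 10 macrophage and monocyte markers, an alternative chosen after seeing the data, the infarct ratios of the IgG receptors and Fcer1g were nearer to 1. That mean was 2.65-fold higher in infarcted tissue labelled Neil3-/- and 2.68-fold higher in infarcted wild type. Relative to it, the infarct ratios of the 4 IgG receptors ran from 0.947, that of Fcgr3 in wild type, to 1.30, that of Fcgr2b in the libraries labelled Neil3-/- and of Fcgr4 in wild type. Fcer1g was at 1.12 in the libraries labelled Neil3-/- and 1.19 in wild type. Fcrls was below the markers, at 0.646 of the ratio they showed in the libraries labelled Neil3-/- and 0.721 in wild type. Fcgrt was at 0.279 in the libraries labelled Neil3-/- and 0.316 in wild type. The direction of Fcrls between infarcted and non-infarcted tissue thus depended on whether it was set against library size or against these markers.

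Genes that act with the receptors were described from lists of their pathway. Of 16 compared genes of activating signalling, 9 were higher by 2-fold or more and 0 lower in infarcted tissue labelled Neil3-/-, and 8 higher and 0 lower in wild type, with medians of 1.10 and 0.98 on log2(RPKM + 1). The Src-family kinase gene Fgr led them at 5.80-fold in the libraries labelled Neil3-/- and 4.23-fold in wild type. Its relative Fyn was lowest, at 1.25-fold labelled Neil3-/- and 1.14-fold in wild type. Syk, the kinase that binds the phosphorylated activation motif, was at 29.9 RPKM in the infarcted and 20.3 RPKM in the non-infarcted library labelled Neil3-/-, a ratio of 1.48. In wild type it was at 27.3 RPKM in infarcted and 18.3 RPKM in non-infarcted tissue, a ratio of 1.49. Of 8 genes of inhibitory signalling, 4 were at least 2-fold higher and 0 lower in each genotype, with medians of 1.06 in the libraries labelled Neil3-/- and 1.08 in wild type. Inpp5d, which encodes the phosphatase recruited by Fcgr2b, was 2.66-fold higher labelled Neil3-/- and 2.68-fold higher in wild type. At the other end, the phosphatase gene Ptpn11 was at 0.710 of its non-infarcted level labelled Neil3-/- and 0.749 in wild type.

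Lectin and other receptors that pair with Fcer1g were higher in infarcted tissue too. Of the 5 compared, 4 passed 2-fold in the libraries labelled Neil3-/- and 5 in wild type, with medians of 2.27 and 1.87. Clec4e, a receptor for mycobacterial and dead-cell ligands, was at 8.24 RPKM in the infarcted and 0.528 RPKM in the non-infarcted library labelled Neil3-/-, from 378 and 19 reads. In wild type it was at 8.12 RPKM in infarcted and 1.12 RPKM in non-infarcted tissue, from 353 and 42 reads. Pira2, an activating immunoglobulin-like receptor gene with near-identical relatives, was low, at 1.48 against 0.384 RPKM in the libraries labelled Neil3-/- and 1.61 against 0.252 RPKM in wild type, infarcted against non-infarcted. On log2(RPKM + 1), which understates ratios of low genes, its ratio was the lowest of the 5, but on RPKM that of Clec4n was lower in both genotypes. Tyrobp, the other main activation-motif adaptor of myeloid cells, had infarct ratios close to those of Fcer1g, 2.91 in the libraries labelled Neil3-/- and 3.23 in wild type. Of its list, 6 of 7 genes passed 2-fold in the libraries labelled Neil3-/- and 4 of 7 in wild type, with medians of 1.25 and 1.34. Trem1, a receptor that pairs with Tyrobp, had log2 ratios of 2.04 in the libraries labelled Neil3-/- and 1.65 in wild type on RPKM + 1. The adaptor gene Hcst was lowest on that scale, at 0.88 in the libraries labelled Neil3-/- and 0.42 in wild type.

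Phagocytosis machinery was higher as a group, with 12 of 17 genes past 2-fold in that direction and 0 in the other in each genotype. The group's medians were 1.22 in the libraries labelled Neil3-/- and 1.25 in wild type. All 17 genes were above 0, beside 66.3% of all compared genes in the libraries labelled Neil3-/- and 67.2% in wild type. Coro1a, an actin-binding protein of leukocytes, was 3.11-fold higher labelled Neil3-/- and 3.05-fold higher in wild type. The widely expressed GTPase gene Rac1 was lowest, at 1.49-fold labelled Neil3-/- and 1.46-fold in wild type. The FcRn partner and recycling genes differed little: 0 of 7 were at least 2-fold apart in either genotype, with medians of 0.25 in the libraries labelled Neil3-/- and 0.28 in wild type, near those of all genes. B2m, the light chain of the Fcgrt product and of class I molecules, was highest in that group, at 1.84-fold in the libraries labelled Neil3-/- and 1.77-fold in wild type. Rab4a, a GTPase of early endosomes, was at 0.840 of its non-infarcted level in the libraries labelled Neil3-/- and 0.890 in wild type.

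**Figure D3:**
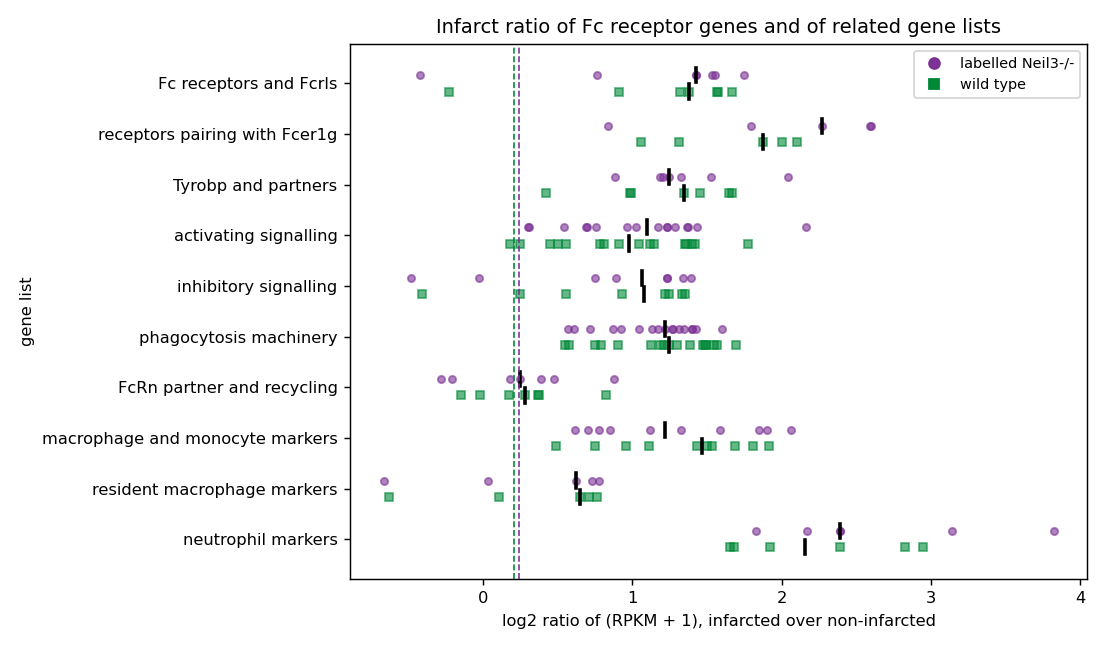
Log2 ratio of (RPKM + 1), infarcted over non-infarcted, of the 7 genes and of the compared genes in 9 related lists; points are genes, short black bars are medians and dashed lines are the medians of all compared genes (0.24 labelled Neil3-/-, 0.21 wild type). The 7 genes have medians of 1.43 and 1.38, receptors pairing with Fcer1g lie higher (2.27 and 1.87), and FcRn partner and recycling genes lie near the dashed lines (0.25 and 0.28).

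Other Fc receptor genes were low. Of 11 listed, 3 reached the level needed for comparison in each genotype, and 6 had no read in at least 1 library, among them the IgE receptor subunits Fcer1a and Ms4a2. Fcrlb, an intracellular Fc receptor-like gene near Fcgr2b, was at 3.72 RPKM in the infarcted and 0.272 RPKM in the non-infarcted library labelled Neil3-/-, from 87 and 5 reads. In wild type it was at 2.17 RPKM in infarcted and 0.471 RPKM in non-infarcted tissue, from 48 and 9 reads. On log2(RPKM + 1), it alone of the compared genes in the list was at least 2-fold higher in both genotypes. Fcrla was also higher on RPKM, at 1.18 against 0.243 RPKM labelled Neil3-/-, from 37 and 6 reads. In wild type it was too low to be compared, at 0.470 against 0.078 RPKM from 14 and 2 reads. Trim21, a cytosolic antibody receptor, was lowest, at ratios of 1.19 in the libraries labelled Neil3-/- and 1.07 in wild type. Among immunoglobulin genes, 1 of 11 listed symbols was found.

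The second comparison was that of libraries labelled Neil3-/- with wild type within each region. Fcrls was about 2-fold higher in the libraries labelled Neil3-/- in both regions, Fcgr3 and Fcgr2b were higher by less, and Fcer1g was lower. In infarcted tissue, 1 of the 7 genes, Fcrls, was at least 2-fold higher and 0 lower, where 0.249% of 12464 compared genes were higher and 0.241% lower. The same count, 1 higher and 0 lower, held in non-infarcted tissue and again meant Fcrls, where 0.254% of 12226 genes were higher and 0.188% lower. At 1.5-fold the count was 1 higher and 0 lower in each region, beside 1.51% higher and 1.55% lower of all genes in infarcted tissue and 1.14% and 0.613% in non-infarcted tissue. These 2 regions of a genotype may come from the same mice, which the labels do not state, so they may not be independent.

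Fcrls was 2.04-fold higher (1.89 to 2.20) in the infarcted library labelled Neil3-/- than in infarcted wild type, and 2.30-fold higher (2.05 to 2.58) in the non-infarcted library labelled Neil3-/- than in non-infarcted wild type. On log2(RPKM + 1) these were 1.003 and 1.15. The infarcted value lay at the threshold, and with median-of-ratios or TMM scaling it was 0.96 or 0.97, so that 0 of the 7 genes passed there. Macrophage and monocyte markers were higher in the libraries labelled Neil3-/- too, for 9 of 10 markers in each region, with medians of 0.39 in infarcted and 0.36 in non-infarcted tissue. The exception, Ly6c2, was at 0.733 of the wild-type level in infarcted and 0.573 in non-infarcted tissue. Of all compared genes, 54.5% were above 0 in infarcted and 53.7% in non-infarcted tissue. Relative to the geometric mean of the 10 markers, Fcrls was 1.64-fold higher in infarcted and 1.83-fold higher in non-infarcted tissue labelled Neil3-/-. Of the resident macrophage and microglia list, 4 of 5 compared genes were above 0 in each region and 0 were 2-fold apart; Cx3cr1 was 1.54-fold higher in infarcted and 1.62-fold higher in non-infarcted tissue, and Lyve1 was at 0.803 of the wild-type level in infarcted and 0.835 in non-infarcted tissue.

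Fcgr2b was 1.49-fold higher (1.39 to 1.60) in the infarcted library labelled Neil3-/- than in infarcted wild type, and 1.16-fold higher (1.02 to 1.32) in non-infarcted tissue. Fcgr3 had ratios of 1.30 (1.22 to 1.38) in infarcted and 1.21 (1.08 to 1.34) in non-infarcted tissue. Fcgr1 was 1.13-fold higher (1.04 to 1.23) in infarcted tissue labelled Neil3-/-, and its non-infarcted interval included 1. The same was true of Fcgr4, at 1.18 (1.01 to 1.39) in infarcted tissue. The geometric mean of the macrophage and monocyte markers was 1.24-fold higher in infarcted and 1.26-fold higher in non-infarcted tissue labelled Neil3-/-, and relative to it the 4 IgG receptors lay between 0.908 (Fcgr1, infarcted) and 1.20 (Fcgr2b, infarcted). They were then below 1 for Fcgr1 in both regions, for Fcgr2b and Fcgr3 in non-infarcted tissue and for Fcgr4 in infarcted tissue, so the direction of these differences turned with that scaling. Fcgrt was at 1.08 (0.982 to 1.19) in infarcted tissue and 1.24 (1.13 to 1.36) in non-infarcted tissue, and relative to the markers at 0.869 in infarcted and 0.984 in non-infarcted tissue.

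Fcer1g went the other way. It was at 0.814 of the wild-type level (0.772 to 0.858) in the infarcted library labelled Neil3-/- and at 0.877 (0.792 to 0.972) in the non-infarcted one. Relative to the macrophage and monocyte markers these ratios were 0.655 in infarcted and 0.698 in non-infarcted tissue. The other adaptor gene, Tyrobp, was higher in the libraries labelled Neil3-/-: it was at 201 RPKM there and 155 RPKM in wild type in infarcted tissue, and at 68.9 RPKM there and 48.1 RPKM in wild type in non-infarcted tissue. No list had a gene at least 2-fold apart on log2(RPKM + 1) in either genotype comparison. Within that limit, all 4 cardiomyocyte markers were lower in the libraries labelled Neil3-/- than in wild type in both regions. Their median log2 ratio was -0.58 in infarcted and -0.14 in non-infarcted tissue. Whether the infarcted libraries differed in their share of heart muscle, and what that would add to the genotype ratios, was not tested. Neutrophil markers, summed as above, were higher in the infarcted and lower in the non-infarcted library labelled Neil3-/-.

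Read coverage, headed so in the authors' files and taken as the share of a gene model with reads, was lower for Fcgr3 in both libraries labelled Neil3-/- than in wild type, and for Fcer1g mainly in the non-infarcted one. For Fcgr3 it was 86.1% in the infarcted library labelled Neil3-/- against 94.3% in infarcted wild type, and 84.2% in the non-infarcted library labelled Neil3-/- against 94.2% in non-infarcted wild type, although Fcgr3 had more reads in the libraries labelled Neil3-/-. Coverage of Fcer1g was 92.4% labelled Neil3-/- against 93.7% in wild type in infarcted tissue, and 84.5% labelled Neil3-/- against 93.3% in wild type in non-infarcted tissue. Among genes of 500 to 3000 bases with at least 500 reads in both libraries, coverage was 5 or more points lower in the library labelled Neil3-/- for 2.13% of 2670 genes in infarcted and 3.18% of 2077 genes in non-infarcted tissue. Fcgr2b, near Fcgr3 on chromosome 1, had 91.7% labelled Neil3-/- against 95.6% in wild type in infarcted tissue, but 89.7% labelled Neil3-/- against 87.0% in wild type in non-infarcted tissue. Fcrls was covered at 98.0% or more in the libraries labelled Neil3-/- and 99.3% or more in wild type. Which bases lacked reads cannot be read from these percentages.

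Fcgr2b, Fcgr4, Fcgr3 and Fcer1g lie close together on chromosome 1, as the RefSeq order of genes shows. Of their 27 neighbours, 19 could be compared in both regions, and 1, Pcp4l1, was at least 1.5-fold apart between genotypes in the same direction in both. Pcp4l1, a relative of a calmodulin-binding peptide gene, stands between Fcgr3 and Fcer1g by that order. It was at 14.8 RPKM labelled Neil3-/- and 48.6 RPKM in wild type in infarcted tissue, and at 40.8 RPKM labelled Neil3-/- and 88.9 RPKM in wild type in non-infarcted tissue. The neighbours' median log2 ratio was -0.12 in infarcted and -0.10 in non-infarcted tissue, below the 0.02 and 0.01 of all compared genes. Around Fcrls on chromosome 3, a set of neighbours chosen after seeing the values, 0 of 10 compared genes were 1.5-fold apart in both regions. Cd5l, a macrophage scavenger gene among them, was at 3.24 RPKM labelled Neil3-/- and 2.59 RPKM in wild type in infarcted tissue. In non-infarcted tissue it was at 3.02 RPKM labelled Neil3-/- and 0.692 RPKM in wild type, the last from 21 reads.

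The infarct responses of the genotypes were then set side by side, as the ratio in the libraries labelled Neil3-/- over that in wild type. This quotient was 1.29 (1.11 to 1.49) for Fcgr2b and 0.873 (0.766 to 0.996) for Fcgrt, whose intervals excluded 1. It was 0.962 (0.799 to 1.16) for Fcgr1, 1.08 (0.952 to 1.22) for Fcgr3 and 0.863 (0.609 to 1.22) for Fcgr4. For Fcer1g it was 0.928 (0.828 to 1.04), and for Fcrls 0.887 (0.774 to 1.02). The last 5 quotients did not differ from 1 beyond counting error, which does not show that the responses were alike. Cardiomyocyte markers were lower in the infarcted library labelled Neil3-/- than in infarcted wild type, and their bearing on these quotients was not tested.

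Proportions between the receptors within a library do not depend on how libraries are scaled. The 4 IgG receptors together summed to 220.2 RPKM in the infarcted and 73.0 RPKM in the non-infarcted library labelled Neil3-/-, and to 166 RPKM in infarcted and 60.9 RPKM in non-infarcted wild type. Fcgr3 supplied 46.8% of that sum in the infarcted and 51.7% in the non-infarcted library labelled Neil3-/-, and 47.8% in infarcted and 51.3% in non-infarcted wild type. The activating receptors Fcgr1, Fcgr3 and Fcgr4 together stood at 1.88 times the inhibitory Fcgr2b (1.78 to 1.98) in the infarcted library labelled Neil3-/-, the lowest of the libraries. The other 3 libraries were at 2.24 (2.10 to 2.39) in infarcted wild type, 2.30 (2.07 to 2.57) in the non-infarcted library labelled Neil3-/- and 2.20 (1.96 to 2.46) in non-infarcted wild type, with overlapping intervals. The interval of the lowest library also overlapped that of non-infarcted wild type. Because Fcgr2b and Fcgr3 share sequence, that proportion depends on how their reads were divided.

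Other proportions divided the libraries by genotype. Fcer1g stood at 1.46 times the activating receptors in infarcted tissue labelled Neil3-/- against 2.25 times in infarcted wild type, and at 1.39 times in non-infarcted tissue labelled Neil3-/- against 1.93 times in non-infarcted wild type. Against Tyrobp it stood at 1.05 (0.988 to 1.11) in the infarcted and 1.03 (0.920 to 1.15) in the non-infarcted library labelled Neil3-/-. In wild type this was 1.66 (1.56 to 1.77) in infarcted and 1.68 (1.49 to 1.89) in non-infarcted tissue. The 2 regions of each genotype thus did not differ in this proportion beyond counting error, and the intervals of the genotypes did not overlap. Fcrls against Csf1r, the receptor for macrophage colony-stimulating factor, showed the same kind of division. It was at 0.837 in the infarcted and 0.753 in the non-infarcted library labelled Neil3-/-, and 0.506 in infarcted and 0.515 in non-infarcted wild type. Csf1r is only 1 of the 10 macrophage and monocyte markers. Relative to the geometric mean of all 10, Fcrls also differed by region. Its infarct ratio was then 0.646 in the libraries labelled Neil3-/- and 0.721 in wild type. B2m over Fcgrt divided the libraries by region, at 28.1 in the infarcted and 11.3 in the non-infarcted library labelled Neil3-/-, and 25.1 in infarcted and 12.04 in non-infarcted wild type.

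**Figure D4:**
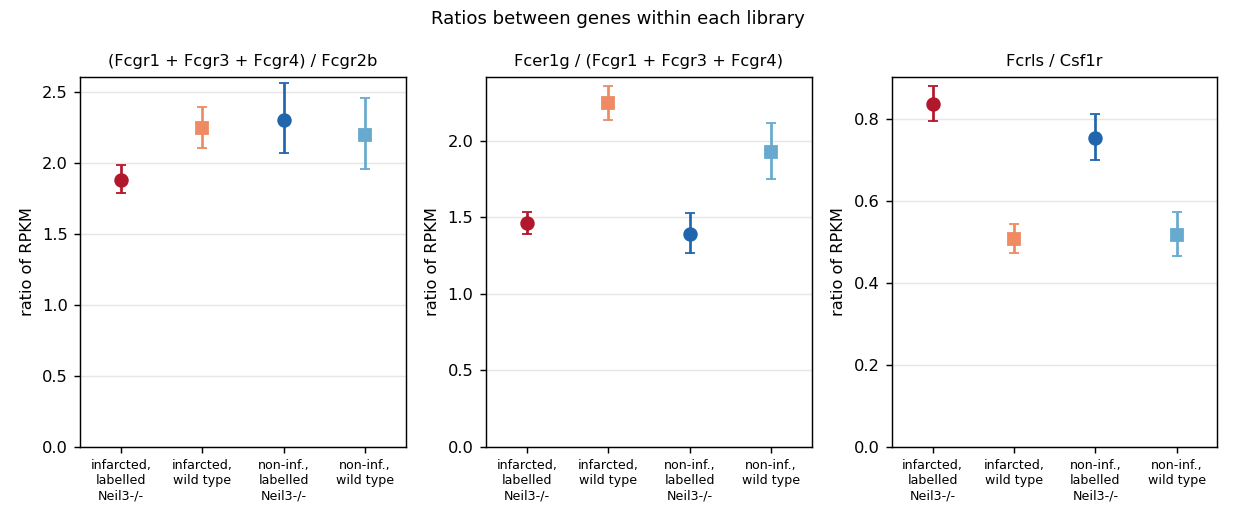
Ratios of RPKM between genes within each library, with 95% intervals for counting error; each point is a single library and all axes start at 0. Activating over inhibitory receptors is lowest in the infarcted library labelled Neil3-/- (1.88), while Fcer1g over activating receptors is lower and Fcrls over Csf1r higher in both libraries labelled Neil3-/- than in both wild-type libraries.

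For each gene the 3 closest profiles were sought among 9643 genes, by the distance between log2(RPKM + 1) values centred over the 4 libraries. With only 4 points per profile, such likeness is a description. Fcgr3 was nearest to Nek6, Lcp2 and Loxl3, at distances of 0.01 to 0.06, and Lcp2 is itself an adaptor of activating signalling. Fcgr4 was nearest to Ptafr, Ncf4 and Rac2, the platelet-activating factor receptor, an oxidase subunit and a leukocyte GTPase. Fcgr1 was nearest to Ripk3, Alox5ap and B4galnt1, and Fcgr2b to Plin2, Il7r and Slc11a1. Fcer1g was nearest to Myc, Rgs16 and Mmp3, and Myc, a growth-linked transcription factor gene, was at 29.0 RPKM labelled Neil3-/- and 34.6 RPKM in wild type in infarcted tissue. Fcgrt was nearest to Mtss1l, Ccdc91 and Gmnn. Fcrls lay farther from its nearest profiles, which were the small RNA gene Snora31 at 0.18, the Wnt modulator Sfrp2 at 0.26 and the DNA sensor Aim2 at 0.28. Aim2 was at 8.87 RPKM labelled Neil3-/- and 3.33 RPKM in wild type in infarcted tissue, and at 4.32 RPKM labelled Neil3-/- and 1.98 RPKM in wild type in non-infarcted tissue.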

How the data were processed

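RNA sequencing of 4 ventricle libraries, 1 per group, was analysed from the tables the authors deposited. Per the file headers, each table gives for every gene with at least 1 read its length, the count of uniquely assigned reads, the coverage in percent and RPKM, all made by the authors. Genes absent from a library's table count as 0 reads there. The deposited RPKM equalled reads divided by length and by the library's unique reads, within a relative error of 3.64e-14. The submitters' processing notes name mm9 as the build. The alignment software, the counting software and strand use were not given in the labels used here.

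Samples were grouped by their labels. With 1 library per group there was no test across genes, and no p-value was computed. Ratios of RPKM carry exact Clopper-Pearson 95% intervals of the read share, levels exact Poisson 95% intervals, and quotients of ratios and proportions within a library approximate 95% intervals on the log scale from their read counts. Reads are not independent molecules, so all intervals cover counting error only. Genes with at least 1 RPKM in 1 of the 2 libraries compared were counted at 2-fold on log2(RPKM + 1); a pseudocount of 1 RPKM understates ratios of low genes. The count was checked on simulated data that held counting error only, so the check says nothing about the spread between mice or samples. Named genes were the 7 genes, Neil3, the members of each list with the highest and lowest infarct ratio on log2(RPKM + 1), by the genotype with the smaller value in size, and its defining genes, the 3 nearest profiles per gene (at least 5 RPKM in 1 library), and chromosome 1 neighbours 1.5-fold apart in both regions. The 18 lists held 141 entries for 140 distinct genes, and 130 of the entries were found. The 7 genes and the lists were chosen with earlier results of these data known. A few further genes, such as Tyrobp and Cd5l, were named after their values were seen. RefSeq sequences and gene order came from GRCm38.p6, which matched 99.5% of genes, and coding sequences from GENCODE M21. Python 3.11.15, numpy 2.4.6, pandas 2.3.3, scipy 1.17.1, matplotlib 3.10.9, R 4.3.3 and edgeR 4.0.16 (TMM factors only) were used. Other scalings, pseudocounts, filters and thresholds were tried.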

Additional observations from a re-analysis of the deposited data

How the results depend on the processing

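No alternative laid down for this work turned the sign of a ratio of the 7 genes: 0 of 140 such values changed sign. The number of genes at least 2-fold higher between infarcted libraries labelled Neil3-/- and wild type was 1 as deposited, but 0 with median-of-ratios scaling and 0 with TMM scaling, since Fcrls stood at the threshold. All other counts of the 7 genes past 2-fold stayed the same under the other scalings, pseudocounts and filters. Both scalings moved the median log2 ratio of all genes in the infarct comparison, to 0.01 and 0.03 in the libraries labelled Neil3-/- (0.24 as deposited) and to 0.01 and 0.01 in wild type (0.21). The share of genes past 2-fold that were higher in infarcted tissue was then 32.0% and 34.1% in the libraries labelled Neil3-/-, and 36.5% and 37.2% in wild type. Without a pseudocount, 75 genes were higher and 75 lower between infarcted libraries labelled Neil3-/- and wild type, against 31 and 30 with it. With a pseudocount of 0.1 RPKM these were 70 and 71. In non-infarcted tissue, 84 were higher and 50 lower without one, against 31 and 23. Relative to the macrophage and monocyte markers, Fcgr3 in wild type turned to -0.079 on the log2 scale between infarcted and non-infarcted tissue; the cause was not tested. Ratios under 2-fold that turned with this same scaling are named beside their values above. No paired analysis was possible because each group had 1 library. Depth limited Fcgr4 most, with 70 reads in its lowest library.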

Other observations

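Fcgrt is known from endothelium as well as from macrophages. Of 4 endothelial markers, 0 were 2-fold apart between infarcted and non-infarcted tissue, with medians of 0.63 in the libraries labelled Neil3-/- and 0.65 in wild type. The cadherin gene Cdh5 was highest. The VEGF receptor gene Kdr was lowest and was the only 1 of the 4 that, like Fcgrt, was lower in infarcted tissue in both genotypes. It was at 34.0 RPKM in the infarcted and 41.5 RPKM in the non-infarcted library labelled Neil3-/-, and 38.1 RPKM in infarcted and 43.0 RPKM in non-infarcted wild type. Cardiomyocyte markers were lower in infarcted tissue, 4 of 4 at least 2-fold in the libraries labelled Neil3-/- and 2 of 4 in wild type, with Myh6 the lowest. Their medians were -1.46 in the libraries labelled Neil3-/- and -1.06 in wild type.

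Markers of mast cells, platelets and fibroblasts were described in the same way. Of 5 mast cell markers 1 was compared, Kit, which other cells express too; it was at 11.2 RPKM in the infarcted and 3.07 RPKM in the non-infarcted library labelled Neil3-/-, and 12.2 RPKM in infarcted and 3.17 RPKM in non-infarcted wild type, while the protease gene Cpa3 lay below 1 RPKM in every library. Platelet markers summed to 207 RPKM in the infarcted and 47.0 RPKM in the non-infarcted library labelled Neil3-/-, and to 156 RPKM in infarcted and 45.3 RPKM in non-infarcted wild type. On log2(RPKM + 1), the chemokine gene Ppbp had the highest infarct ratio among them in both genotypes and the integrin gene Itga2b the lowest. Among 4 fibroblast markers, 1 was at least 2-fold higher in infarcted tissue labelled Neil3-/- and 0 in wild type; Col1a1 was highest and Dcn lowest.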
